A study of Mus musculus with 21 samples.

Results

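The NRF2 targets and the glutathione system were followed as 41 mouse genes chosen by gene name: the transcription factor NRF2 (Nfe2l2) and its inhibitor Keap1, 9 cytoprotective NRF2 targets, 5 genes of glutathione synthesis and regeneration, 4 enzymes of the pentose phosphate pathway, whose oxidative branch yields NADPH, 14 glutathione transferases and 7 enzymes that remove peroxide or superoxide. All 41 names were found among the 55418 gene symbols of the count files, and all 41 passed the read filter, which was set over all 4 groups of libraries. RNA had been sequenced from whole, perfused mouse liver in 21 libraries. In the KO groups Mboat7, which encodes an enzyme that loads arachidonate onto lysophosphatidylinositol, was deleted in hepatocytes, and the WT groups carried wild-type Mboat7. On chow there were 6 WT and 7 KO libraries, from mice 10 weeks old. On HFCDD, a fat-rich, choline-deficient diet with little methionine, there were 4 WT and 4 KO libraries, from mice that began the diet at 6 to 8 weeks of age and ate it for 6 weeks. Diet therefore went with age and with the range of animal numbers, and these cannot be told apart. The deleted exons and the Cre line are not given in the sources used here, and whole liver also holds cells in which Mboat7 was not deleted. The titles give every library an animal number of its own. The labels do not otherwise say how the animals were sampled. The p-values set group differences against the spread between libraries, estimated in the main fit over all 4 groups together.

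NRF2 is kept scarce in resting cells because KEAP1 hands it to a ubiquitin ligase. When oxidants or electrophiles modify KEAP1, NRF2 accumulates, pairs with a small MAF protein and binds antioxidant response elements in the promoters and enhancers of its targets. Those targets include enzymes that make glutathione, that couple it to reactive compounds, and that supply the NADPH with which oxidized glutathione and thioredoxin are reduced again; the liver is the main organ of glutathione synthesis.

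Libraries held 17502231 to 25822972 counts. Levels are given as CPM, the usual depth-scaled count, on library totals scaled by the TMM method of edgeR. Log2 fold changes are given ± SE, and group means ± SD. The targeted gene itself, Mboat7 (GRCm38, chromosome 7 from 3677789 to 3693523, minus strand), had 33 to 39.7 CPM (median 36.1) in WT livers on chow and 18.8 to 24.1 CPM (median 21.9) in KO livers. On HFCDD it had 34.7, 35.6, 36.6 and 38.1 CPM in WT and 15.8, 18.8, 20.2 and 20.8 CPM in KO livers, so that every KO library lay below every WT library of its diet, and one of its exons overlaps Tsen34 on the opposite strand. Hepatocyte markers (6 of 7 listed were in the files) summed to 83770 to 127100 CPM over the libraries, and none of the 6 was at 0 in any group. Xist was at 118.5 CPM or more and Ddx3y at 0.134 CPM or less in every library. The 4 gallbladder mucosa markers summed to 30.9 to 121 CPM in WT chow replicates 3 and 5 and KO chow replicates 1 and 7, and to at most 0.959 CPM in the other 17 libraries, and 4 muscle markers reached 1362 CPM in KO chow replicate 7. A gene was called when its adjusted p from edgeR's quasi-likelihood test (Benjamini-Hochberg, over 15677 genes) was under 0.05.

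The members spanned a wide range on chow. Per kilobase of exon, Mgst1, a membrane-bound transferase and peroxidase, had the highest mean level in WT livers on chow (1387 CPM per kb), followed by Gpx1, the main cytosolic glutathione peroxidase (1379), and Cat, catalase (776). At the other end were Gpx2, the gut type of glutathione peroxidase (0.0458), Gsta1, an alpha-class transferase (0.0168), and Slc7a11, the cystine carrier that feeds glutathione synthesis (0.000606). The order changed on HFCDD: the mu-class transferase Gstm3 stood at rank 33 of 41 on chow (8.54 CPM per kb) and at rank 7 in WT livers on HFCDD (233.0), while the theta-class transferase Gstt2 moved from rank 19 to rank 34. Among members at 1 CPM or more, the median coefficient of variation between libraries of a group was 15.9% for WT on chow, 11.8% for KO on chow, 10.6% for WT on HFCDD and 11.1% for KO on HFCDD.

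**Figure D1:**
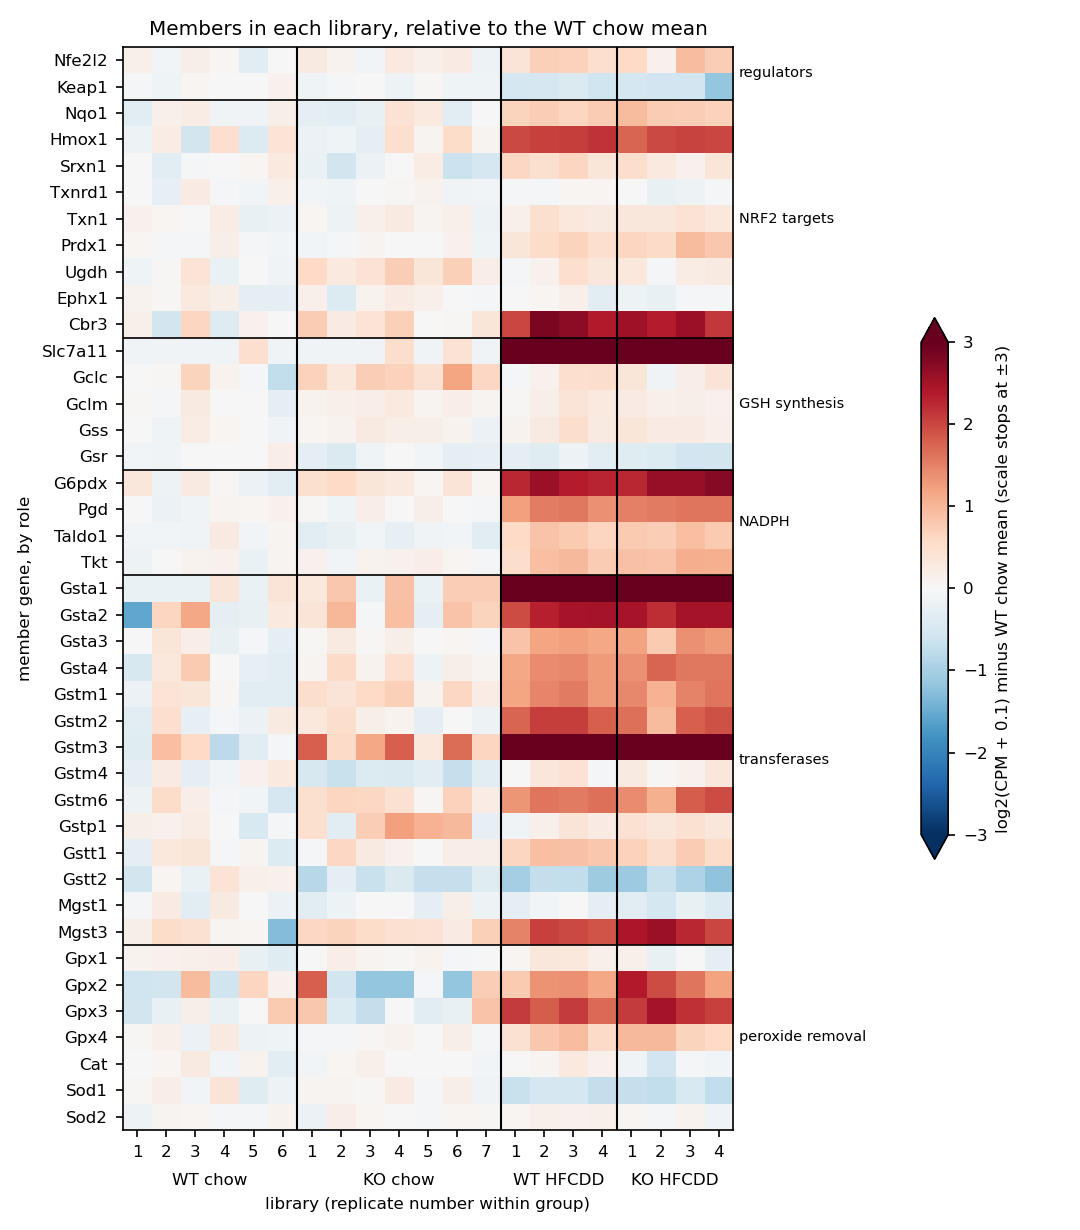
Each square is 1 member gene (rows, grouped by role) in 1 library (columns, by group), as log2(CPM + 0.1) minus the mean of the 6 WT chow libraries; red is higher, blue is lower, and the colour scale ends at 3 in either direction. Both HFCDD blocks are red over most of the transferase and NADPH rows, and the KO chow block is close to the WT chow block. The chow squares of Gsta1, Slc7a11 and Gpx2 rest on few reads.

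Some members could share reads with near-identical copies, which limits how far single genes can be read. Of the 50-base words in the transcripts of Gsta1, 90.5% also occur in another gene (75.7% in Gm3776), and the share was 49.8% for Gsta2, 34.7% for Gpx4, 33.7% for Gstp1, 28.8% for Gstm3, 21% for Sod2 and 18.9% for Gstm1. The other 34 members shared under 10%, and 18 of them shared none. Exons of Keap1, Gclm, Gss and G6pdx lie over a gene on the opposite strand, and with no strand setting given, the reads of both genes of a pair may be mixed.

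Promoters were examined because NRF2 acts through short DNA elements. The core of the antioxidant response element, TGACNNNGC on either strand, was searched in the RefSeq windows from 250 bases before to 50 after each start site (GRCm38.p6). Of the 41 members 36 had a window, and 11 of these held the core: Nfe2l2, Srxn1, Gclm, Prdx1, Pgd, Ugdh, Gsta3, Mgst1, Txnrd1, Sod1 and G6pdx. It was present in 11 of 47 member windows (23.4%) and in 4071 of 32851 windows of all genes (12.4%). A match describes these letters only and is no bound site, and elements outside the windows were not looked for. The 250 bases before the start site are shown for 5 members: Ugdh, which was called higher in KO livers on chow and has 2 matches, and Nfe2l2, Prdx1, G6pdx and Gsta3, which were called higher on HFCDD in both genotypes. Capitals mark the 9 bases of a match; a match on the opposite strand is printed as its reverse complement. The Prdx1 match, TGACTCAGC on the opposite strand, also holds TGACTCA, the AP-1 element.
Ugdh (chr5:65435843-65436092, minus strand): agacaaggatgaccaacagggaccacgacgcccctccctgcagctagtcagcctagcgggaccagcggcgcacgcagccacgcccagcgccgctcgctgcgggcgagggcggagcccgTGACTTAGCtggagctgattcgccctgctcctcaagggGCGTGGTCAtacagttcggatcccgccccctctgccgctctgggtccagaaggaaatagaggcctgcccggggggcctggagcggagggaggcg
Nfe2l2 (chr2:75704664-75704913, minus strand): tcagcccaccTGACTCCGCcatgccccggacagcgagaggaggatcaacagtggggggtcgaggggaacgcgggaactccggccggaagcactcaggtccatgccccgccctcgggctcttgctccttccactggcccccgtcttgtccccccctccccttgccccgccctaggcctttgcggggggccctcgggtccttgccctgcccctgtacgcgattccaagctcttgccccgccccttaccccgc
Prdx1 (chr4:116685349-116685598, plus strand): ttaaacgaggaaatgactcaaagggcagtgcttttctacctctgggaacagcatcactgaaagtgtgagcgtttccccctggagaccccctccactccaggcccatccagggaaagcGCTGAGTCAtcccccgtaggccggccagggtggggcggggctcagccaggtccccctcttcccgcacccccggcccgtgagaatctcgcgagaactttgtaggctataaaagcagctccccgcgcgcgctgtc
G6pdx (chrX:74428881-74429130, minus strand): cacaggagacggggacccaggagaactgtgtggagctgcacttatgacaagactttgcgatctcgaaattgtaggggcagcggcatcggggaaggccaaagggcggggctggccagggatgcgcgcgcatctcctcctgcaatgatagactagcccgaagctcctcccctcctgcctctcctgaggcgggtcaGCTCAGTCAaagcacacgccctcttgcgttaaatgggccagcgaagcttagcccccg
Gsta3 (chr1:21240335-21240584, plus strand): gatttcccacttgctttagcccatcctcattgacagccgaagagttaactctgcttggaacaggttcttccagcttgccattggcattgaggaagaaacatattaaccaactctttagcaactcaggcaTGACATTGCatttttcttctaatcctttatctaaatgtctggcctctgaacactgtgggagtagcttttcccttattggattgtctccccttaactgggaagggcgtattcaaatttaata

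Members with and without a match were then counted by their response to diet. In WT livers 7 of the 11 members with a match were called higher on HFCDD and 1 lower (median log2 fold change 0.52), and of the 25 without one 17 were higher and 1 lower (median 0.78), where the share over all genes was 29% higher and 33.6% lower. In KO livers 6 were higher and 3 lower of the 11 with a match (median 0.49), and 18 higher and 1 lower of the 25 without (median 0.90), against 33.7% and 36% of all genes. These are descriptions of the listed windows, and the difference was not tested.

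HFCDD against chow gave the widest change in the module. In WT livers 26 of 41 members (63.4%) were called higher on HFCDD, where 29% of all genes were, and 4 members (9.76%) were called lower, where 33.6% of all genes were. The members' median log2 fold change was 0.69, against -0.05 over all genes tested. The members were chosen with earlier results of these data known, so their excess over all genes is a description of this list. Slc7a11, Gsta1 and Gpx2 had few chow reads and passed the read filter through the HFCDD libraries, so their calls by diet depend in part on that filter. With the chow libraries alone 38 members passed it. Of 53 other genes of the pathway 30.2% were called higher and 26.4% lower in WT, near the shares of all genes. In KO livers 26 members were again called higher (background 33.7%) and 7 lower (background 36%), with a median of 0.75 against -0.02. Of the members, 24 were called higher and 4 lower in both genotypes, and 0 were called in opposite directions. In WT the libraries of both diets did not overlap for 23 members that were higher and 4 that were lower, where this held for 23.1% and 24.1% of all genes. In KO it held for 22 members that were higher and 2 that were lower, against 25.7% and 27.3% of all genes. All 26 members higher in KO kept their call in every alternative tried, and in WT Gclm was the single member of the 26 that lost it in any.

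Cell type markers moved with diet as well. The 8 macrophage markers summed to 178.7 to 511.3 CPM in WT livers on chow and 254.1 to 351.7 CPM in KO livers, and on HFCDD to 1740 to 2090 CPM (WT) and 1757 to 2256 CPM (KO). Of these, 7 of 8 were called higher in each genotype, where 29% of all genes were in WT and 33.7% in KO. Stellate cell and fibroblast markers (7 of 8 called higher in each genotype) spanned 211.6 to 509.5 CPM on chow, 1193 to 1470 CPM in WT livers on HFCDD and 1550 to 1767 CPM in KO livers on HFCDD. Cholangiocyte markers, of which 4 of 8 were called higher in WT and 7 of 8 in KO, spanned 35.2 to 109.8 CPM on chow, 199.1 to 240.5 CPM in WT livers on HFCDD and 551.0 to 801.9 CPM in KO livers on HFCDD. Most of these sums came from Spp1 alone, so they largely follow 1 gene. It had 19.3 to 74 CPM on chow, 172.3 to 210.6 CPM in WT on HFCDD and 480.8 to 716.4 CPM in KO on HFCDD. Of the 6 hepatocyte markers 3 were called lower in WT and 4 in KO, where 33.6% and 36% of all genes were. Their sums, mostly from Alb, overlapped between diets. In WT they spanned 83770 to 127100 CPM on chow and 87370 to 101800 CPM on HFCDD. In KO they spanned 89360 to 114400 CPM on chow and 86630 to 93850 CPM on HFCDD. The part of these cell types in the members' change was not tested, and in bulk tissue fewer cells of a type and less RNA per cell cannot be told apart.

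**Figure D2:**
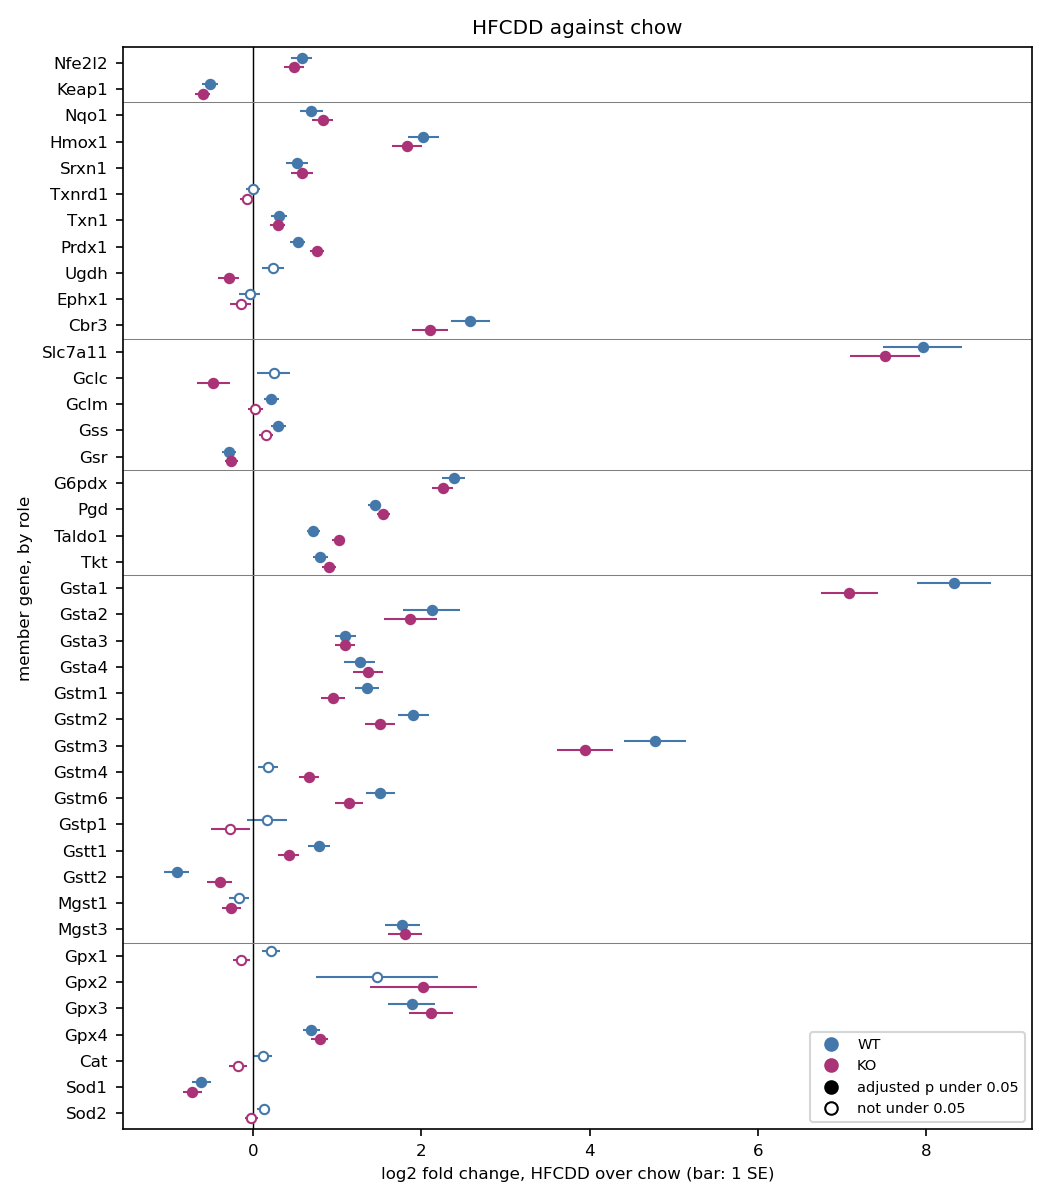
Points give the log2 fold change of HFCDD over chow for each member in WT (blue) and KO (purple) livers, with bars of 1 SE; filled points have an edgeR adjusted p under 0.05. Most filled points lie to the right of 0, and those of Keap1, Gsr, Gstt2 and Sod1 lie to the left in both genotypes; the points of Gsta1 and Slc7a11 rest on 0 to 2 chow reads per library.

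The regulators went in opposite directions. Nfe2l2 ran from 69.1 to 97.2 CPM (median 87.2) in WT and 77.6 to 105.5 CPM (median 95.1) in KO on chow. On HFCDD its libraries had 112.7, 121.5, 138.3 and 140.4 CPM in WT and 92.9, 128.96, 141.7 and 162.7 CPM in KO. All WT libraries on HFCDD lay above all WT chow libraries, whereas 1 KO library on HFCDD fell inside the KO chow range. Nfe2l2 rose in both genotypes by edgeR (log2 fold change 0.57, SE 0.12, adjusted p = 0.00033 in WT; log2 fold change 0.49, SE 0.12, adjusted p = 0.00094 in KO). Keap1 ran from 70.5 to 83.2 CPM (median 76.5) in WT and 69 to 78.6 CPM (median 69.7) in KO on chow. Its HFCDD libraries had 50.9, 53.1, 54.4 and 56.4 CPM in WT and 34.5, 51.2, 51.8 and 53 CPM in KO, all below every chow library of the same genotype. Keap1 fell by edgeR (log2 fold change -0.52, SE 0.09, adjusted p = 3.9e-05 in WT; log2 fold change -0.60, SE 0.09, adjusted p = 2.9e-06 in KO), and neither regulator was called for genotype on either diet.

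Among the 9 cytoprotective targets 6 rose in each genotype: Nqo1, Hmox1, Srxn1, Txn1, Prdx1 and Cbr3. Cbr3, a carbonyl reductase, gave the largest fold change of these. It ran from 0.533 to 1.34 CPM (median 0.873) in WT and 0.834 to 1.47 CPM (median 1.09) in KO on chow, and its HFCDD libraries had 3.63, 4.74, 5.81 and 6.45 CPM in WT and 3.93, 4.63, 5.32 and 5.36 CPM in KO. Chow and HFCDD libraries did not overlap, and the edgeR fold was 5.98 in WT and 4.3 in KO (log2 fold change 2.58, SE 0.23, adjusted p = 1.5e-09 in WT; log2 fold change 2.10, SE 0.21, adjusted p = 7.1e-09 in KO). Hmox1, the heme oxygenase, had 17.2 to 35.6 CPM (median 25.9) in WT and 20.4 to 36.8 CPM (median 26.6) in KO on chow, and 99.7, 104.7, 106.7 and 113.4 CPM in WT and 84.2, 99.5, 102.02 and 102.3 CPM in KO on HFCDD. Every HFCDD library lay well above every chow library, and Hmox1 rose 4.05-fold in WT and 3.55-fold in KO by edgeR (adjusted p = 8.2e-09 and 1e-08). Nqo1, a quinone reductase, spanned 13.7 to 20.2 CPM (median 17.6) in WT on chow and had 26.9, 27.4, 29 and 29.3 CPM in WT on HFCDD. It rose by 0.69 ± 0.13 in WT and 0.82 ± 0.13 in KO on the log2 scale. Srxn1, sulfiredoxin, which repairs oxidized peroxiredoxins, spanned 77.8 to 119.4 CPM (median 97.1) in WT on chow and had 124.5, 136.3, 148.8 and 151.5 CPM in WT on HFCDD. It rose by 0.52 ± 0.14 in WT and 0.57 ± 0.13 in KO. Thioredoxin itself, Txn1, rose by 0.31 ± 0.10 in WT and 0.29 ± 0.09 in KO. Prdx1, a thioredoxin-dependent peroxidase and one of the more abundant members, spanned 674.0 to 801.6 CPM (median 684.5) in WT on chow and had 911.1, 1013, 1042 and 1136 CPM in WT on HFCDD. It rose by 0.53 ± 0.09 in WT and 0.75 ± 0.08 in KO. Txnrd1, thioredoxin reductase, was not called, with -0.01 in WT and -0.08 in KO (edgeR adjusted p = 0.96 and 0.41). The epoxide hydrolase Ephx1 was not called either, with -0.04 in WT and -0.15 in KO.

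Glutathione synthesis was mixed: of its 5 genes 3 rose and 1 fell in WT, and 1 rose and 2 fell in KO. Slc7a11, the cystine carrier, gave 1 read in 6 WT chow libraries and 2 reads in 7 KO chow libraries, and was at 0 in 5 libraries of each. On HFCDD its libraries had 3.23, 3.5, 3.59 and 3.65 CPM in WT and 2.68, 3.1, 4.09 and 4.46 CPM in KO, against at most 1 read in any chow library. The ratio of summed, depth-scaled counts was 413.7 in WT (exact 95% interval 73.8 to 16390) and 254.8 in KO (70.1 to 2112); these intervals cover counting error only, and fitted fold changes of so few reads depend on the prior count. It rose in both genotypes by edgeR (adjusted p = 1.5e-12 and 2.7e-13), but it passed the read filter only through the HFCDD libraries, where it is high.

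The glutamate-cysteine ligase, the rate-limiting enzyme of glutathione synthesis, has a catalytic subunit, Gclc, and a modifier subunit, Gclm. Gclm ran from 190.4 to 283.1 CPM (median 235.5) in WT on chow, and its WT libraries on HFCDD had 238.1, 264.6, 288.8 and 304.6 CPM. It rose in WT (log2 fold change 0.22, SE 0.09, adjusted p = 0.035, edgeR), with overlapping libraries. The call was lost without WT HFCDD replicate 3 (adjusted p = 0.13) or replicate 4 (0.089), and with only the compared groups in the fit (0.074). In KO Gclm had 248.6 to 285.8 CPM (median 258.2) on chow and 258.1, 262.1, 266.2 and 279.1 CPM on HFCDD and was not called (0.03 ± 0.09). Gss, glutathione synthetase, ran from 82.3 to 105.2 CPM (median 89.5) in WT on chow and had 97.7, 108.3, 108.9 and 131.3 CPM in WT on HFCDD. The groups overlapped in 1 HFCDD library, and Gss rose in WT (log2 fold change 0.30, SE 0.09, adjusted p = 0.0052, edgeR). In KO it had 80.5 to 108.1 CPM (median 96.9) on chow and 100.7, 107.4, 107.9 and 115.7 CPM on HFCDD and was not called (0.15 ± 0.09, adjusted p = 0.12). Gclc was not called in WT (0.24 ± 0.19; adjusted p = 0.045 without WT chow replicate 3) and fell in KO (log2 fold change -0.47, SE 0.19, adjusted p = 0.034, edgeR). That call was lost without KO chow replicate 3 (adjusted p = 0.062) or 6 (0.1) and without KO HFCDD replicate 2 (0.12) or 3 (0.073), without KO chow replicates 1 and 7 together (0.05) and with no low-count filter (0.12). For Gclm, Gss and Gclc the diet effect was not shown to differ between genotypes, since no member was called in that test.

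Gsr, glutathione reductase, fell in both genotypes. It ran from 119.8 to 146.8 CPM (median 127.5) in WT and 95.1 to 126.4 CPM (median 107.4) in KO on chow, and its HFCDD libraries had 99.3, 102.5, 104.02 and 115.8 CPM in WT and 86.6, 87.6, 96.9 and 99.3 CPM in KO. The diets did not overlap in WT, and 2 of 4 KO libraries lay inside the KO chow range. The edgeR estimates were -0.29 ± 0.08 in WT and -0.26 ± 0.08 in KO (adjusted p = 0.0043 and 0.0061), and the KO call was lost with no low-count filter (0.053).

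All 4 enzymes of the pentose phosphate pathway rose in both genotypes. G6pdx, glucose-6-phosphate dehydrogenase, which opens the pathway, ran from 3.39 to 5.37 CPM (median 4.11) in WT and 4.42 to 6.45 CPM (median 5.51) in KO on chow. Its HFCDD libraries had 20.8, 21.2, 22 and 26 CPM in WT and 20.7, 26.5, 26.6 and 28.9 CPM in KO. Every HFCDD library lay above every chow library, and G6pdx rose 5.22-fold in WT and 4.77-fold in KO by edgeR (log2 fold change 2.38, SE 0.13, adjusted p = 7.5e-13 in WT; log2 fold change 2.25, SE 0.12, adjusted p = 3.3e-13 in KO). Pgd, 6-phosphogluconate dehydrogenase, the other NADPH-yielding step, spanned 28.2 to 34.9 CPM (median 32.5) in WT on chow and had 75.3, 82.8, 93.1 and 96.4 CPM in WT on HFCDD. It rose 2.72-fold in WT and 2.92-fold in KO (edgeR adjusted p = 6.8e-13 and 5.1e-14). The non-oxidative enzymes Taldo1 and Tkt rose less, Taldo1 by 0.72 ± 0.08 in WT and 1.02 ± 0.08 in KO and Tkt by 0.80 ± 0.09 and 0.90 ± 0.09 on the log2 scale. In the list of other NRF2 targets Me1, malic enzyme, a further source of NADPH, fell (-2.70 ± 0.15 in WT, -2.53 ± 0.15 in KO, edgeR adjusted p = 1.2e-12 in each genotype).

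Of the 14 transferases, which couple glutathione to electrophiles, 10 rose and 1 fell in WT, and 11 rose and 2 fell in KO. The largest differences were in the alpha and mu classes. Gsta1 gave 2 reads in 6 WT and 9 reads in 7 KO chow libraries. On HFCDD its libraries had 6.32, 6.34, 7.1 and 9.22 CPM in WT and 5.21, 10.0, 10.6 and 11.6 CPM in KO. The ratio of summed counts was 430.4 in WT (exact 95% interval 118.7 to 3561) and 147.1 in KO (77.2 to 322.6), again for counting error only, and Gsta1 rose in both by edgeR (adjusted p = 2.3e-13 in WT livers and 3e-14 in KO livers). Like Slc7a11, Gsta1 passed the read filter only through the HFCDD libraries. Gsta2 ran from 2.83 to 19.1 CPM (median 8.83) in WT and 7.08 to 17.2 CPM (median 13.6) in KO on chow and had 33.3, 43.3, 47.6 and 48.7 CPM in WT and 40.2, 48, 48.8 and 48.8 CPM in KO on HFCDD. All its HFCDD libraries lay above all chow libraries, and it rose by 2.12 ± 0.34 in WT and 1.87 ± 0.32 in KO (edgeR adjusted p = 2.6e-05 and 4.2e-05). Because these genes share sequence, Gsta1, Gsta2, Gm3776 and Gm10639 were also summed: together they averaged 10.1 CPM in WT chow and 53.6 CPM in WT HFCDD libraries (log2 ratio 2.41), and the log2 ratio was 2.25 in KO. Gsta3 and Gsta4 rose by 1.09 and 1.26 in WT and by 1.09 and 1.36 in KO.

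Gstm3 showed the largest change among transferases that were well above the read floor on chow. It ran from 5.95 to 19.3 CPM (median 9.09) in WT and 12.7 to 36.1 CPM (median 23.3) in KO on chow. Its HFCDD libraries had 226.5, 302.8, 315.8 and 376.8 CPM in WT and 249.5, 342.5, 411.7 and 511.8 CPM in KO. The lowest HFCDD library was above the highest chow library in both genotypes, and Gstm3 rose 27.4-fold in WT and 15.4-fold in KO by edgeR (log2 fold change 4.78, SE 0.36, adjusted p = 3.3e-09 in WT; log2 fold change 3.94, SE 0.33, adjusted p = 6.2e-09 in KO). Gstm1, the most abundant mu-class member, spanned 510.2 to 838.0 CPM (median 607.9) in WT and 685.8 to 1037 CPM (median 908.5) in KO on chow, and had 1443, 1546, 1765 and 1864 CPM in WT and 1299, 1729, 1792 and 1946 CPM in KO on HFCDD. The diets did not overlap in either genotype. Gstm1 rose 2.55-fold in WT and 1.93-fold in KO, Gstm2 3.74-fold and 2.84-fold, and Gstm6 2.85-fold and 2.21-fold. The sum of Gstm1, Gstm2, Gstm3, Gstm6 and their 2 listed copies moved by 1.59 in WT and 1.21 in KO on the log2 scale. Of the remaining transferases Mgst3, a microsomal enzyme, rose by 1.77 in WT and 1.80 in KO, and Gstt1 by 0.78 and 0.42. Gstp1, the pi-class member, was not called in either genotype (0.16 ± 0.24 in WT and -0.27 ± 0.23 in KO).

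Gstt2, Gstm4 and Mgst1 departed from this. Gstt2 ran from 86.2 to 168.2 CPM (median 135.9) in WT on chow, and its WT libraries on HFCDD had 61, 62.1, 76.2 and 76.9 CPM, all below the chow range. It fell in WT (log2 fold change -0.91, SE 0.15, adjusted p = 1.8e-05, edgeR). In KO it ran from 70.9 to 103.6 CPM (median 80.4) on chow and had 54.8, 59.8, 66.8 and 80.0 CPM on HFCDD, and it fell with overlapping libraries (log2 fold change -0.40, SE 0.14, adjusted p = 0.017, edgeR). The KO call was lost without KO HFCDD replicate 1 (adjusted p = 0.058) or 4 (0.08) and with no low-count filter (0.075). Gstm4 was called in KO, where it rose (0.67 ± 0.12, edgeR adjusted p = 2e-05), and not in WT (0.18 ± 0.12, adjusted p = 0.19), though it was called there without WT chow replicate 2 (adjusted p = 0.046) or 6 (0.042). Mgst1 fell in KO (-0.26 ± 0.11, adjusted p = 0.042). The Mgst1 call was lost under DESeq2 (adjusted p = 0.051), limma-voom (0.053), RLE scaling (0.065) and no low-count filter (0.13), and without KO chow replicates 2, 3, 4 or 6 (0.074, 0.1, 0.065 and 0.15) or KO HFCDD replicates 1, 2 or 4 (0.063, 0.14 and 0.097).

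The 7 enzymes that remove peroxide or superoxide split. Gpx3, the secreted glutathione peroxidase, averaged 10.7 CPM ± 3.81 (SD, n = 6) in WT on chow and 39.5 CPM ± 5.49 (SD, n = 4) on HFCDD, and 11.1 CPM ± 5.08 (SD, n = 7) and 48.2 CPM ± 7.11 (SD, n = 4) in KO. The HFCDD libraries lay above the chow libraries, and Gpx3 rose 3.7-fold in WT and 4.33-fold in KO (edgeR adjusted p = 9.4e-06 and 8.7e-07). Gpx4, which reduces lipid hydroperoxides in membranes, rose 1.62-fold in WT and 1.73-fold in KO. Sod1, the cytosolic superoxide dismutase, went the other way. It ran from 601.9 to 1013 CPM (median 764.3) in WT and 719.7 to 926.9 CPM (median 822.8) in KO on chow, and its HFCDD libraries had 476.4, 492.9, 538.03 and 547.01 CPM in WT and 467.6, 467.8, 479.1 and 564.9 CPM in KO. All HFCDD libraries lay below all chow libraries of the same genotype, and Sod1 fell by edgeR (log2 fold change -0.62, SE 0.12, adjusted p = 6e-05 in WT; log2 fold change -0.72, SE 0.11, adjusted p = 4.8e-06 in KO). Gpx2, with 0 to 16 reads in a chow library, was called higher in KO (2.02 ± 0.63, adjusted p = 0.007) and not in WT (1.48 ± 0.73, adjusted p = 0.081). The 4 chow libraries with gallbladder mucosa transcripts (WT replicates 3 and 5, KO replicates 1 and 7) were the 4 highest on chow for Gpx2, at 0.335, 0.253, 0.674 and 0.274 CPM, against 0 to 0.147 CPM in the other 9; without all 4 of them the Gpx2 estimate was 4.27 in KO and 2.38 in WT (adjusted p = 3.5e-06 and 0.002). Leaving out KO chow replicate 1 alone gave 3.13 in KO (adjusted p = 0.00011), and in WT Gpx2 was called by limma-voom (1.76, adjusted p = 0.017) and without WT chow replicate 3 (1.86, adjusted p = 0.044). Gpx1, Cat and the mitochondrial dismutase Sod2 were not called by edgeR in either genotype, with estimates from -0.18 to 0.21. In WT Gpx1 was called by limma-voom (0.22, adjusted p = 0.046) and without WT chow replicate 2 (0.28, 0.041) or 4 (0.29, 0.028), and Sod2 without WT chow replicate 2 (0.19, 0.035) or 6 (0.185, 0.041).

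**Figure D3:**
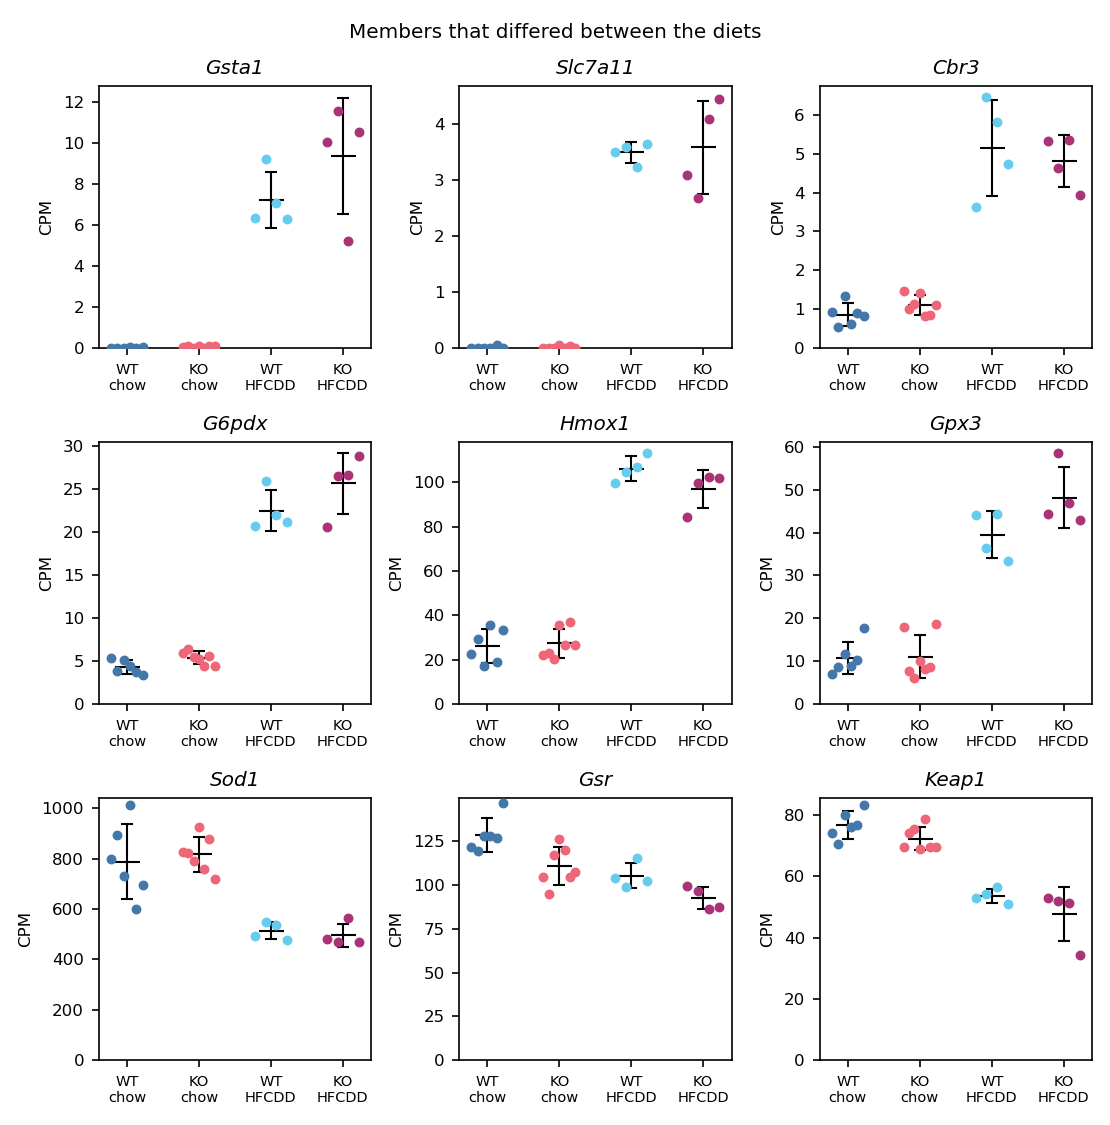
Each panel plots 1 member in CPM on an axis from 0; points are libraries, and black bars give the group mean and SD (6, 7, 4 and 4 libraries from left to right). Gsta1, Slc7a11, Cbr3, G6pdx, Hmox1 and Gpx3 are higher in all HFCDD than in all chow libraries, while Sod1 and Keap1 are lower within each genotype and Gsr overlaps in KO.

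Few members were called for KO against WT on chow. Of 41 members 1 (2.44%) was called higher in KO (background 0.561% of genes) and 2 (4.88%) lower (background 1.61%). By edgeR 13 of 41 members had an unadjusted p under 0.05, beside 2806 of 15677 genes. The members' median log2 fold change was 0.06 against 0.01 over all genes. Ugdh, UDP-glucose dehydrogenase, which makes the sugar donor of glucuronidation (chromosome 5, 65413221 to 65435949, minus strand, GRCm38), ran from 156.4 to 237.6 CPM (median 174.0) in WT and 208.2 to 298.5 CPM (median 242.2) in KO. The highest WT library, replicate 3, lay among the KO libraries, and the other 5 lay below all of them. Ugdh rose 1.39-fold by edgeR (log2 fold change 0.47, SE 0.11, adjusted p = 0.029). Leaving out any of 6 single libraries ended the call: the adjusted p was 0.063, 0.075 or 0.076 without WT chow replicate 4, 5 or 6, and 0.064, 0.064 or 0.077 without KO chow replicate 1, 4 or 6. With the chow libraries fitted alone it was 0.076.

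Gstm4 (chromosome 3, 108040408 to 108044894, minus strand) and Gstt2 (chromosome 10, 75831114 to 75837424, minus strand) were the members called lower in KO. Gstm4 ran from 36.1 to 53.5 CPM (median 44.7) in WT and 27.2 to 35.5 CPM (median 32.4) in KO, and every KO library lay below every WT library, the one member of 41 for which this held in either direction (all genes, 0.236% above and 0.421% below). It fell by edgeR (log2 fold change -0.49, SE 0.10, adjusted p = 0.021), and the call was lost without WT chow replicate 5 (adjusted p = 0.066) or 6 (0.062), without KO chow replicate 6 (0.06) and with the chow libraries alone (0.074). Gstt2 ran from 86.2 to 168.2 CPM (median 135.9) in WT and 70.9 to 103.6 CPM (median 80.4) in KO, with overlap. It fell by edgeR (log2 fold change -0.59, SE 0.13, adjusted p = 0.021). That call was lost without WT chow replicate 5 (0.068) or 6 (0.062), without KO chow replicate 1 (0.053) or 6 (0.06), under limma-voom (0.05) and with the chow libraries alone (0.076).

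The next smallest p belonged to Gclc and Gstm3, which were not called. Gclc ran from 159.6 to 422.3 CPM (median 268.4) in WT and 333.6 to 601.9 CPM (median 428.4) in KO (log2 fold change 0.64, SE 0.17, adjusted p = 0.052, edgeR). Gstm3 ran from 5.95 to 19.3 CPM (median 9.09) in WT and 12.7 to 36.1 CPM (median 23.3) in KO (log2 fold change 1.14, SE 0.31, adjusted p = 0.063, edgeR). For each, 4 of 7 KO libraries lay above all WT libraries. Gclc was called under DESeq2 (adjusted p = 0.0078) and without WT chow replicate 3 (0.0062) or KO chow replicate 2 (0.045) or 5 (0.043), and Gstm3 under DESeq2 (0.011) and without WT chow replicate 2 (0.036) or 3 (0.042) or KO chow replicate 5 (0.034). Gstm1 was at 0.44 ± 0.13 (adjusted p = 0.075), Gstp1 at 0.65 ± 0.21 (adjusted p = 0.11) and Gsr at -0.21 ± 0.07 (adjusted p = 0.11) by edgeR. Gstm1 was called under DESeq2 (adjusted p = 0.03) and without WT chow replicate 2 (0.041) or 3 (0.03) or KO chow replicate 5 (0.043). Gstp1 was called under DESeq2 (0.022) and without KO chow replicate 2 (0.032) or 7 (0.03) or replicates 1 and 7 together (0.047).

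Over all alternatives the number of members called on chow ran from 0 to 7. It was 7 under DESeq2 (5 higher, 2 lower), 2 under limma-voom and 0 with the chow libraries fitted alone, where 2 of 14147 genes were called in all and 38 members were tested. Leaving out WT chow replicate 5 or 6 or KO chow replicate 6 gave 0 members (0.313%, 0.32% and 0.339% of all genes called). Leaving out KO chow replicate 1 gave 1 (0.583% of all genes), and leaving out KO chow replicate 2 gave 5 (1.85%). Without WT chow replicate 2 or 3 or KO chow replicate 5 the number was 6 (1.86%, 3.91% and 2.87% of all genes). Without the 4 chow libraries that held mucosa or muscle transcripts 3 members and 1.22% of all genes were called. Of these members Ugdh and Gstm4 were among the 3 named first and Gclc was not, while Gstt2 was lost (edgeR adjusted p = 0.061).

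**Figure D4:**
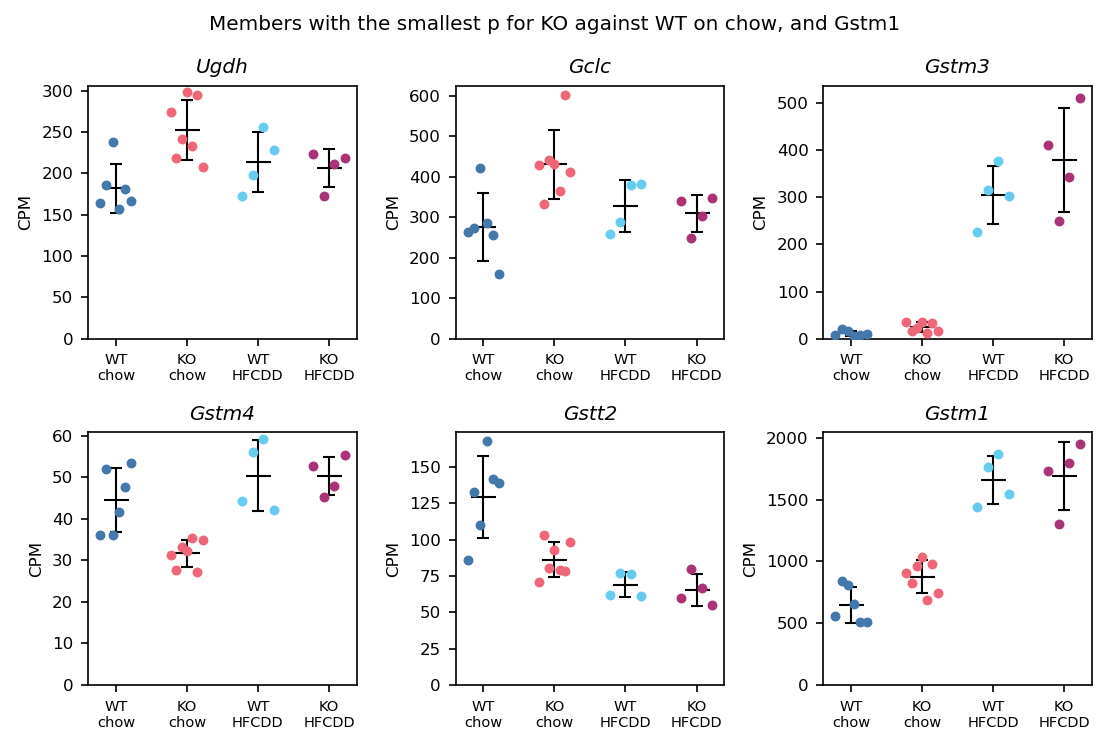
Panels plot 6 members in CPM on axes from 0, with points for libraries and black bars for the group mean and SD (6, 7, 4 and 4 libraries from left to right). Ugdh, Gclc, Gstm3 and Gstm1 are on average higher and Gstm4 and Gstt2 lower in KO than in WT on chow, and the genotypes overlap on HFCDD in all 6 panels.

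On HFCDD 0 of 41 members were called for genotype by edgeR in either direction, where 0.223% of all genes were called higher and 0.0957% lower. By edgeR 4 of 41 members had an unadjusted p under 0.05, beside 1562 of 15677 genes. DESeq2 and limma-voom called 0 members as well, where they called 1.23% and 2.05% of all genes. The members' median log2 fold change was 0.03. Cat had 2014, 2127, 2183 and 2479 CPM in WT and 1353, 1883, 1914 and 1973 CPM in KO, all KO libraries below all WT libraries, though the edgeR test was not passed (log2 fold change -0.30, SE 0.12, adjusted p = 0.37). It was the one member without overlap, where 3.66% of all genes had every KO library below and 4.96% above the WT libraries. Gpx1 had 2059.5, 2171, 2448 and 2496 CPM in WT and 1619, 1673, 1976 and 2172 CPM in KO, with 3 of 4 KO libraries below the WT range (log2 fold change -0.30, SE 0.12, adjusted p = 0.37). Prdx1 had 911.1, 1013, 1042 and 1136 CPM in WT and 1050.1, 1106, 1244 and 1376 CPM in KO (log2 fold change 0.22, SE 0.10, adjusted p = 0.44). These groups overlapped, as did those of Gsr, which had 99.3, 102.5, 104.02 and 115.8 CPM in WT and 86.6, 87.6, 96.9 and 99.3 CPM in KO (log2 fold change -0.19, SE 0.09, adjusted p = 0.5), and of Mgst3. Mgst3 had 31.5, 41.3, 43.8 and 46.2 CPM in WT and 45, 53.7, 59.5 and 66.5 CPM in KO (log2 fold change 0.47, SE 0.23, adjusted p = 0.52). The members called on chow stood at -0.05 ± 0.14 for Ugdh, -0.00 ± 0.13 for Gstm4 and -0.08 ± 0.16 for Gstt2 on HFCDD. Cholangiocyte markers differed by genotype on this diet (6 of 8 called higher in KO). Without 1 HFCDD library this count was 1 when KO replicate 3 was left out and 0 for each of the other 7. It was 6 with DESeq2, 7 with limma-voom, 8 with the compared groups alone, and 3 with RLE scaling or no low-count filter. Of 8 stellate cell and fibroblast markers 0 were called by edgeR in the main fit, and 4 were called higher with the compared groups alone. The part of these markers in the members' values was not tested.

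**Figure D5:**
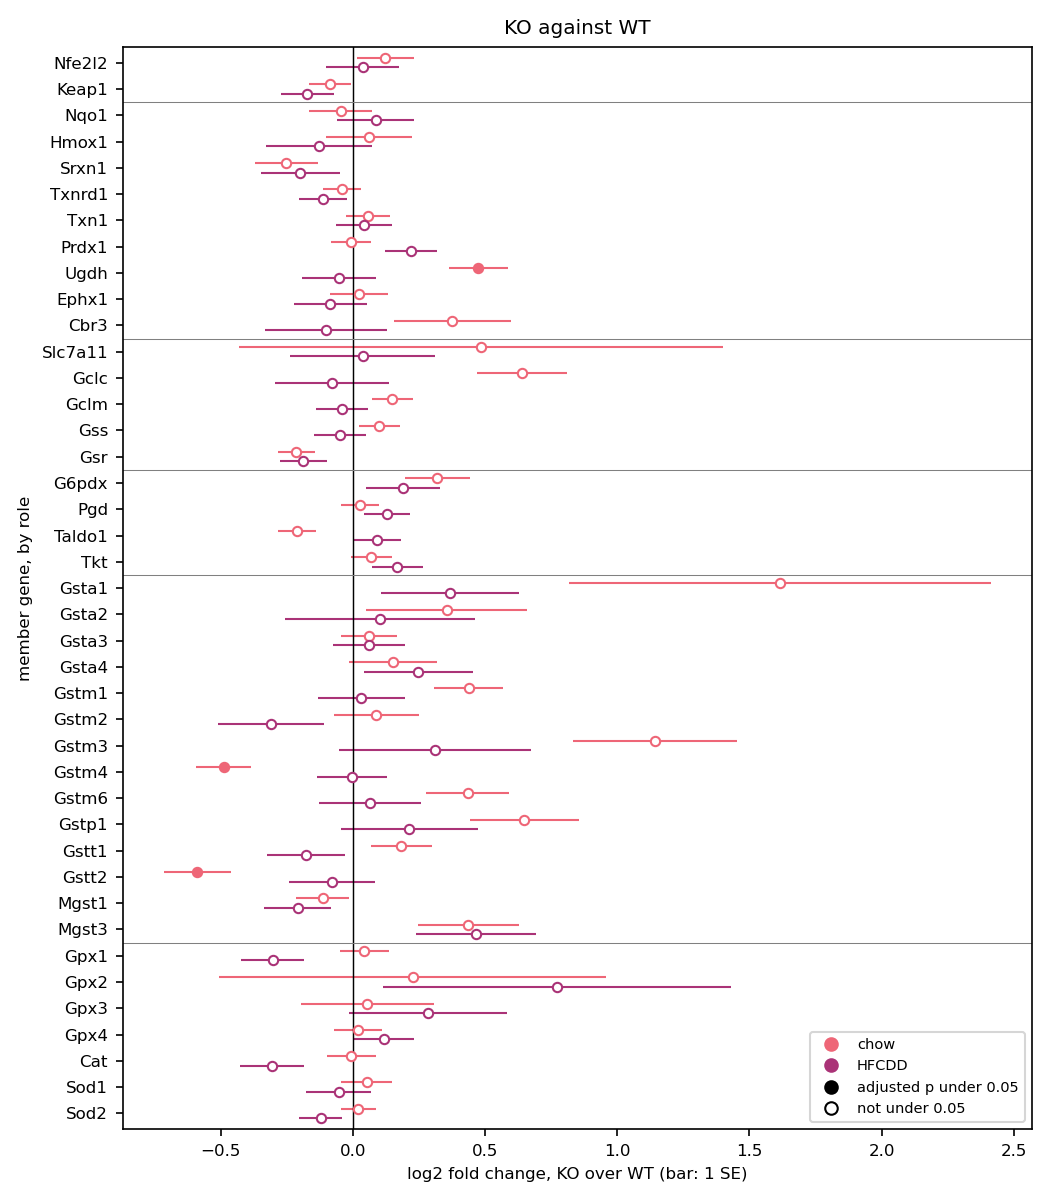
Points give the log2 fold change of KO over WT for each member on chow (pink) and on HFCDD (purple), with bars of 1 SE; filled points have an edgeR adjusted p under 0.05. The filled points are Ugdh, Gstm4 and Gstt2 on chow, and all HFCDD points are open.

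The KO effects on HFCDD and on chow were also subtracted in a test of their difference. By edgeR 0 of 41 members were called (background 0% in each direction: 0 of 15677 genes higher and 0 lower). An unadjusted p under 0.05 by edgeR was found for 6 of 41 members, beside 1581 of 15677 genes. DESeq2 and limma-voom called 0 members, where they called 0.619% and 0.0638% of all genes. By edgeR 0.54% of all genes were called without KO chow replicates 1 and 7, and 0.4% without the 4 chow libraries with mucosa or muscle transcripts, with 0 members in each. The members' median was -0.11 on the log2 scale against 0.00 over all genes. The smallest p belonged to Ugdh, with a KO effect of 0.47 on chow and -0.05 on HFCDD (difference -0.53 ± 0.18, adjusted p = 0.29). Gstm4 followed with a difference of 0.48 ± 0.17 (adjusted p = 0.3), Gclc with -0.72 ± 0.27 (adjusted p = 0.37) and Gstt2 with 0.51 ± 0.20 (adjusted p = 0.4). Taldo1 had 79.3 to 102.9 CPM (median 81.3) in WT and 67.3 to 80.5 CPM (median 73.4) in KO on chow and 129.4, 134.1, 148.2 and 154.4 CPM in WT and 143.2, 148.8, 148.9 and 161.6 CPM in KO on HFCDD (difference 0.30 ± 0.12, adjusted p = 0.38). These values do not show that the KO effects were alike on both diets.

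The KO effect on chow and the diet effect in WT share the 6 WT chow libraries, so their values are only set side by side. Gstm3 was at 1.14 for KO on chow and at 4.78 for HFCDD in WT, Gstm1 at 0.44 and 1.35, and Gstt2 at -0.59 and -0.91. Gclc was at 0.64 and 0.24, Ugdh at 0.47 and 0.23, and Gstm4 at -0.49 and 0.18. In KO livers Ugdh fell with HFCDD (log2 fold change -0.29, SE 0.12, adjusted p = 0.042, edgeR), from 208.2 to 298.5 CPM (median 242.2) on chow to 173.2, 211.2, 218.2 and 223.7 CPM, and in WT it was not called, except at 0.32 without WT chow replicate 3 (adjusted p = 0.023) and 0.33 without WT HFCDD replicate 1 (0.037), and at 0.34 without the 4 chow libraries with mucosa transcripts (0.022). The KO call was lost under DESeq2 (adjusted p = 0.053), limma-voom (0.068), RLE scaling (0.057) and no low-count filter (0.11), and without KO chow replicates 1, 3, 4 or 6 (0.067, 0.066, 0.083 and 0.13) or KO HFCDD replicates 2, 3 or 4 (0.17, 0.069 and 0.055).

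Other genes of the pathway, 54 in 5 lists of NRF2 regulators, NRF2 targets, transferases, thioredoxin partners and glutathione turnover, were counted in the same way. Of these 53 were tested, and 16 (30.2%) were called higher and 14 (26.4%) lower on HFCDD in WT (median -0.05), near the 29% and 33.6% of all genes. In KO 18 (34%) were higher and 17 (32.1%) lower (median -0.04), near the 33.7% and 36% of all genes. Those called by edgeR that rose most in WT were Gpx8 (2.64) and Gpx7 (2.57), peroxidases of the endoplasmic reticulum, and the aldo-keto reductase Akr1b8 (1.80). Besides Me1, the strongest falls in WT among those called by edgeR were in Oplah, 5-oxoprolinase (-1.27), and Cbr1, a carbonyl reductase related to Cbr3 (-1.07). Of 10 other regulators 3 were called in WT, and they are named here after their values were seen: Mafg, a small MAF partner of NRF2, fell (-1.05 in WT, -1.44 in KO), as did Rbx1, a subunit of the KEAP1 ubiquitin ligase (-0.42 and -0.50), and Sqstm1, which binds KEAP1, rose in WT (0.21, edgeR adjusted p = 0.026). For genotype edgeR called 0 of the 53 on chow and 0 on HFCDD, and on chow DESeq2 and limma-voom called 0 as well. An unadjusted p under 0.05 by edgeR was found for 7 of the 53 on chow, beside 2806 of 15677 genes. On HFCDD it was found for 8 of the 53, beside 1562 of 15677 genes. On HFCDD DESeq2 called 2, Oplah and Entpd5, a nucleotidase, and limma-voom called Entpd5. For the difference between diets edgeR, DESeq2 and limma-voom called 0, beside 0%, 0.619% and 0.0638% of all genes. By edgeR 2 of the 53 had an unadjusted p under 0.05 there, beside 1581 of 15677 genes.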

How the data were processed

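RNA-seq read counts per gene symbol were deposited by the authors as 1 table per library, with no normalization recorded. Per the submitters' processing notes the tools were featureCounts 1.6.1, STAR 2.6.1d and CASAVA 2.17, with the genome build GRCm38 and no roles stated; the annotation release, strand setting and read filter are not given in the sources used here. Library totals ran from 17502231 to 25822972 counts, and 0 of 48 within-group pairs of libraries were identical (lowest chi-square per degree of freedom 15.7). The counts were tested as deposited with edgeR 4.0.16 in R 4.3.3: filterByExpr left 15677 genes, libraries were scaled by TMM, and 1 robust quasi-likelihood model with 4 group means and no covariate was fitted to all 21 libraries. F tests of 5 contrasts were adjusted over all genes by Benjamini-Hochberg at 0.05, and SE was taken as the ratio of the log2 fold change to the root of F. CPM values rest on TMM-scaled totals over the tested genes. The procedure was checked on simulated counts. Alternatives were DESeq2 1.42.0, limma-voom (limma 3.58.1) with sample quality weights, RLE scaling, no low-count filter, the compared groups alone, leaving out each library, and leaving out chow libraries with mucosa or muscle transcripts.

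The 41 members, the other pathway genes and the marker lists were chosen with earlier results of these data known. Values by library (each value in groups of 4, the range and median in larger groups) were given for Nfe2l2 and Keap1, for members called in a KO contrast (or the 5 with the smallest p where fewer than 5 were called) and for the 6 largest and the 6 smallest called fold changes of HFCDD over chow in WT livers; other pathway genes were named at most 3 per contrast and direction, and the regulators Mafg, Rbx1 and Sqstm1 were added after their values were seen. Positions come from GENCODE M21 on GRCm38 and promoters from RefSeq on GRCm38.p6; promoters of Gclc, Gsr, Gsta4, Gstt2 and Hmox1 were not analysed here. Intervals of low counts are exact (Clopper-Pearson, 95%) and cover counting error only, since reads were summed over the libraries of a group. Differences between libraries do not enter them, and without molecular identifiers copies of the same molecule cannot be told apart.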

Additional observations from a re-analysis of the deposited data

Results flagged for a closer look

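Each of 164 combinations of a member and a group was searched for a library standing apart from the rest of its group by Dixon's criterion, which chance meets in about 1 in 20 groups, and 11 were found. In KO livers on HFCDD, Keap1 was at 34.47 CPM in replicate 4 against 51.24 to 52.98 CPM in the others, and Hmox1 at 84.2 CPM in replicate 1 against 99.51 to 102.3 CPM. Replicate 2 of that group was low for Gsta2, an alpha-class transferase (40.18 CPM against 48.02 to 48.82 CPM), and for catalase, Cat (1353 CPM against 1883 to 1973 CPM). Replicate 3 was high for Sod1 (564.9 CPM against 467.7 to 479.1 CPM).

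In WT livers on chow, Ugdh was at 237.6 CPM in replicate 3 against 156.4 to 185.6 CPM, and Gsr, glutathione reductase, at 146.8 CPM in replicate 6 against 119.8 to 128 CPM. The value of Slc7a11 in replicate 5, 0.05065 CPM, is a single read, and the other 5 libraries were at 0. In KO livers on chow, Gclc was at 601.9 CPM in replicate 6 against 333.6 to 441.9 CPM, Gstt1 at 208.5 CPM in replicate 2 against 133.2 to 165.1 CPM, and Gpx2 at 0.674 CPM (16 reads) in replicate 1 against 0 to 0.2737 CPM.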

How the results depend on the processing

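The count of members called for KO against WT on chow, 3 by edgeR, was the one member count that moved by over 1.5 times: it was 7 with DESeq2, which kept all 3, and 0 with the compared groups alone, and leaving out 1 library at a time gave 0 to 6. The number of all genes called in that contrast moved as well. It was 340 by edgeR, 705 with DESeq2, 113 with limma-voom, 2 with the compared groups alone and 49 to 611 without 1 library. For KO against WT on HFCDD it was 50 by edgeR, 193 with DESeq2, 2.05% of 15677 genes with limma-voom, 296 with the compared groups alone, 32 with RLE scaling, 28 with no low-count filter and 1 to 16 without 1 HFCDD library. The member counts for HFCDD against chow ran from 29 to 33 in WT and from 28 to 33 in KO over the alternatives run, and those for KO against WT on HFCDD and for the difference between diets were 0 in each. Of 1609 alternative values for 91 named fold changes, 1538 kept their side of the threshold, 53 lost a call, 18 gained one and 0 reversed a called direction. The 91 leave out some uncalled members that also gained a call. These were Gstm1, Gstp1 and Gstm6 for KO on chow, and Gpx1 and Sod2 for diet in WT. Gstm6 was called on chow by edgeR without WT chow replicate 2 (0.58, adjusted p = 0.048). With no low-count filter the median of all genes for HFCDD against chow in KO moved to -0.106 from -0.0224 (log2). The cause of these moves was not tested. No paired analysis was possible because the labels give the groups no shared replicate numbers. With 4 to 7 libraries a group, differences the size of the KO effects on chow sat close to the threshold. Slc7a11, Gsta1 and Gpx2 had at most 16 reads in any chow library, so that their fold changes on HFCDD are set by few reads.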

Other observations

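The other pathway genes were split into 5 lists, which are counted here by edgeR calls on HFCDD against chow, beside shares over all genes of 29% higher and 33.6% lower in WT, and 33.7% and 36% in KO. Among 15 further NRF2 targets 4 were higher and 6 lower in WT, and 6 and 7 in KO; these included Akr1b8, an aldo-keto reductase, at 1.83 in KO, and Me1. Of 7 further transferases tested 2 were higher and 1 lower in WT, and 3 and 2 in KO, with Gstp2, which shares sequence with Gstp1, at -1.93 in KO. Of 10 thioredoxin and peroxiredoxin genes 4 were higher and 3 lower in WT, and 4 and 4 in KO. Of 11 genes of glutathione turnover 5 were higher and 2 lower in each genotype, and in KO Gpx7 stood at 2.94, Gpx8 at 2.45 and Oplah at -1.44. Of the 10 regulators 1 was higher and 2 lower in WT, and 0 and 2 in KO.

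The remaining marker lists are given as summed CPM. Endothelial markers spanned 150.6 to 292.0 CPM on chow and 275.6 to 352.7 CPM on HFCDD. Erythroid markers reached at most 172.7 CPM, in a KO chow library. The 7 mitochondrial transcripts listed spanned 23820 to 31080 CPM on chow and 35240 to 43820 CPM on HFCDD. Of these mt-Co2, mt-Co3 and mt-Atp6 had at most 4.52 CPM in any library, so the sums are in effect those of the other 4. These 4 passed the count filter, and all were called higher on HFCDD in both genotypes.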
